A study of Mus musculus with 4 samples.

Results

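The miR-297, miR-466, miR-467 and miR-669 families are short RNAs that mouse cells cut from repeated hairpins, most of them packed into an intron of the gene Sfmbt2. They were measured here in mouse aorta by small RNA sequencing. Members were chosen by name alone: an entry was taken if its name began with miR-297, miR-466, miR-467 or miR-669 followed by a letter or a hyphen. This gave 68 of the 1152 entries listed, 6 of miR-297, 28 of miR-466, 10 of miR-467 and 24 of miR-669. Entries with identical values in all 4 libraries were counted as 1 row, which left 51 distinct rows of 808 in the whole table.

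The aortas came from wild type C57BL/6 mice aged 12 weeks, and the 4 libraries, 2 of Sham and 2 of CKD (chronic kidney disease) by their labels, are pools of 4 samples each. In the labelled disease model, both poles of the left kidney were cut away, the right kidney was taken out 1 week later, and food with 2% phosphate and water with 0.45% NaCl were given for 4 weeks to induce vascular calcification. The labels give this treatment in the same words for both groups, so the handling of the Sham mice, including their diet, is not known. Nothing in the labels says whether the 2 pools of a group were separate sets of animals, so the p-values below measure only the spread between these libraries, which may be technical.

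A microRNA (miRNA) of about this size guides the Argonaute protein to messenger RNAs that pair with its seed, bases 2 to 8, and lowers their output. Each hairpin can give a product from its left side, named 5p, and from its right side, named 3p, and usually 1 of these arms is kept. Sfmbt2 encodes a Polycomb group protein, and in mice the gene and the miRNA cluster inside it are imprinted, with expression from the paternal copy in the early embryo and the placenta. The cluster is known from rodents, where it is most studied in placenta.

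The label of the cluster was checked against the genome annotation. RefSeq (GRCm38.p6, the build that the submitters' processing notes name as GRCm38) holds 82 hairpins of the 4 families, and 72 of them lie inside Sfmbt2 on chromosome 2, between 10466663 and 10518279. Sfmbt2 itself spans 10370440 to 10595253, and both GENCODE M21 protein-coding transcripts that cross the cluster place it, on the plus strand, in the same intron from 10461473 to 10523944, which is intron 10 in the count of one and intron 11 in the count of the other. The stretch held 29 miR-669, 24 miR-466, 14 miR-467 and 5 miR-297 hairpins. The order miR-467, miR-466, miR-669 came up 12 times between 10473931 and 10503877, with a median of 2452 bp from the start of one such triplet to the next (range 2413 to 4880 bp). Some names had many source hairpins: 12 for miR-669a, 10 for miR-467a and 8 for miR-466b.

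**Figure D1:**
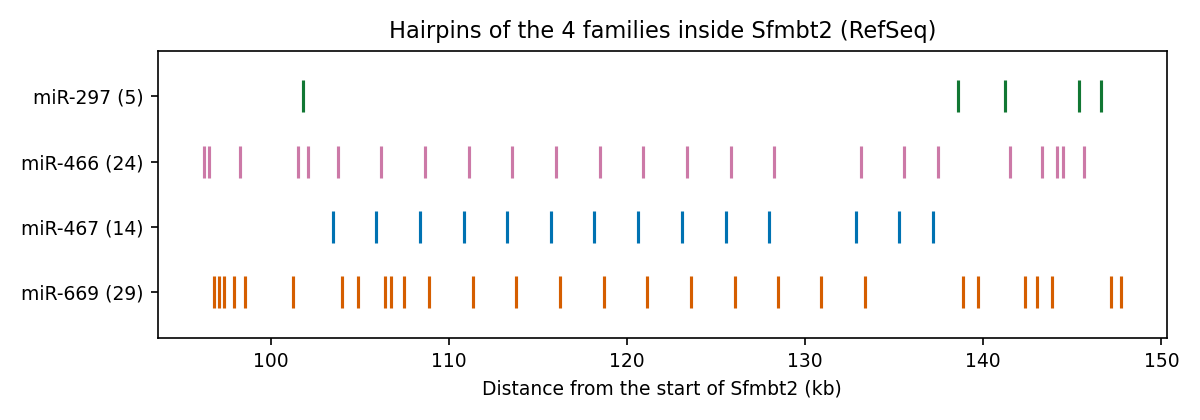
Hairpins of the 4 families inside Sfmbt2. The x axis is the distance from the start of the gene in kb, each vertical tick is the start of 1 RefSeq hairpin, and the rows are the families with their hairpin counts, 5, 24, 14 and 29. The ticks of miR-467, miR-466 and miR-669 recur together at a regular distance in the middle of the cluster, while the miR-297 hairpins lie outside that stretch.

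The remaining 10 hairpins lie on 7 other chromosomes. For 6 of the 68 names (miR-466i-5p, miR-466i-3p, miR-466j, miR-466k, miR-466q and miR-467f) RefSeq gives a hairpin only outside Sfmbt2, so "Sfmbt2 cluster" does not describe these 6. Another 5 names, of miR-297a and miR-466f, have hairpins both inside and outside, and 57 have theirs only inside.

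RefSeq mature sequences matched 5 of the 68 names, all of them from hairpins outside Sfmbt2. They are shown because they let a reader see the near-repeat make-up of these 5 names, which may not hold for the rest of the families. The sequences are written 5′ to 3′ with the seed in capitals.
miR-466j: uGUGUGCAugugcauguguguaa
miR-466k: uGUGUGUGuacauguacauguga
miR-466q: gUGCACACacacacauacgu
miR-466i-3p: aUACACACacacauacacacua
miR-467f: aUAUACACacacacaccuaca

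The mature miR-466j lies on chromosome 10 from 60960802 to 60960824, plus strand, outside other annotated genes. The mature miR-466k lies on chromosome 3 from 85467396 to 85467418, plus strand, opposite an intron of Gm37240. The mature miR-466q lies on chromosome 3 from 28419988 to 28420007, plus strand, in an intron of Tnik. The mature miR-466i-3p lies on chromosome 13 from 17747552 to 17747573, plus strand, opposite an intron of Cdk13. The mature miR-467f lies on chromosome 11 from 69635419 to 69635439, minus strand, opposite an intron of Fxr2.

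All 5 are almost pure runs of purine next to pyrimidine, either UG-rich (miR-466j and miR-466k) or CA-rich (the other 3). Their longest unbroken alternating run was 16 to 22 bases. Across the 1679 distinct mature names in the RefSeq table the median was 4 bases, and 0.476% of names had a run of at least 16. The 5 seeds differ from each other, and none of them is shared with another of the 1679 names. No other name of these families matched a sequence there, so seeds shared within the families could not be looked for.

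Reads of alike sequences can match several names, but for most names here no sequence was at hand to compare. In the table, 29 names fell into 12 groups with identical values. In 5 of the groups, with 13 names, the entries held over 100 reads in all 4 libraries together. These were miR-467a-5p with miR-467b-5p, miR-669a-3p with miR-669o-3p, miR-669a-5p with miR-669p-5p, miR-467a-3p with miR-467d-3p, and the 3p entries of miR-466a, miR-466b, miR-466c, miR-466e and miR-466p. The 3p entries of miR-297a, miR-297b and miR-297c formed a further group, with 84 reads. The other 6 groups had at most 30 reads, and there equal values may also arise from a few reads that happen to match. Each group is named below by its first member, and its level cannot be split among the names. No source used here says how reads that match several names were counted, and distinct rows may also share part of their reads.

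The families were scarce in the aorta. The deposited values are counts per 1000000 listed miRNA reads (CPM), and whole reads could be recovered from them, between 16658810 and 17532748 per library. The 51 distinct rows together held 564 and 749 reads in the Sham pools against 1795 and 1718 reads in the CKD pools. That is 32.2 and 44.4 CPM in Sham against 102 and 103 CPM in CKD. The 12 rows with a mean of at least 1 CPM held 85.3% of these reads, and the 4 most abundant held 57.1%. By mean CPM those 12 ranked between 230 and 455 among the 1152 entries.

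miR-467a-5p, shared with miR-467b-5p, was the most abundant of all. Members of the miR-467 family are known as repressors of thrombospondin-1, an inhibitor of blood vessel growth. It had 7.02 and 9.95 CPM in the Sham pools against 17.5 and 21.6 CPM in the CKD pools. The next was miR-669a-3p with 4.39 and 6.64 CPM in the Sham pools against 14.7 and 13.2 CPM in the CKD pools. miR-669a is known for holding back skeletal muscle differentiation in heart progenitor cells. Its other arm, miR-669a-5p, had 4.11 and 5.10 CPM in the Sham pools against 12.1 and 11.6 CPM in the CKD pools. In these 3 rows both CKD libraries lay above both Sham libraries.

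miR-669c-5p reached a like level from a single RefSeq hairpin, whereas the names behind miR-669a-5p have 14 hairpins between them. It had 3.65 and 4.15 CPM in the Sham pools against 11.9 and 13.8 CPM in the CKD pools. miR-669b-5p, also from 1 hairpin, had 0.86 and 0.71 CPM in the Sham pools against 3.42 and 3.30 CPM in the CKD pools. Again the groups did not overlap.

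Among the other miR-467 rows, miR-467a-3p had 1.03 and 2.31 CPM in the Sham pools against 4.73 and 4.62 CPM in the CKD pools. miR-467e-5p had 0.97 and 1.42 CPM in the Sham pools against 5.02 and 5.28 CPM in the CKD pools, the highest ratio of CKD to Sham in this family among rows with a mean of at least 1 CPM. miR-467d-5p had 0.97 and 1.13 CPM in the Sham pools against 2.45 and 3.24 CPM in the CKD pools. The least abundant of these, miR-467c-5p, had 0.86 and 1.07 CPM in the Sham pools against 2.97 and 1.86 CPM in the CKD pools. Its CKD libraries differed more from each other than those of the other 3, but both still lay above Sham.

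In the miR-466 family only 2 rows had a mean of at least 1 CPM, and both were 3p. The row shared by 5 names, miR-466a-3p, had 1.77 and 2.67 CPM in the Sham pools against 4.56 and 4.98 CPM in the CKD pools. miR-466d-3p had 0.91 and 1.60 CPM in the Sham pools against 5.08 and 4.74 CPM in the CKD pools. The CKD libraries were high in both rows, without overlap.

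miR-297a-3p, the row shared by 3 names, was the exception. It had 1.14 and 0.89 CPM in the Sham pools against 1.71 and 1.14 CPM in the CKD pools. The second CKD library was level with the first Sham library, so the groups were not separated. The row rested on 20, 15, 30 and 19 reads in the order Sham 1, Sham 2, CKD 1 and CKD 2. It was also the member just inside the limit of 1 CPM, with a mean of 1.22 CPM, while miR-669o-5p was just outside with 0.915 CPM.

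**Figure D2:**
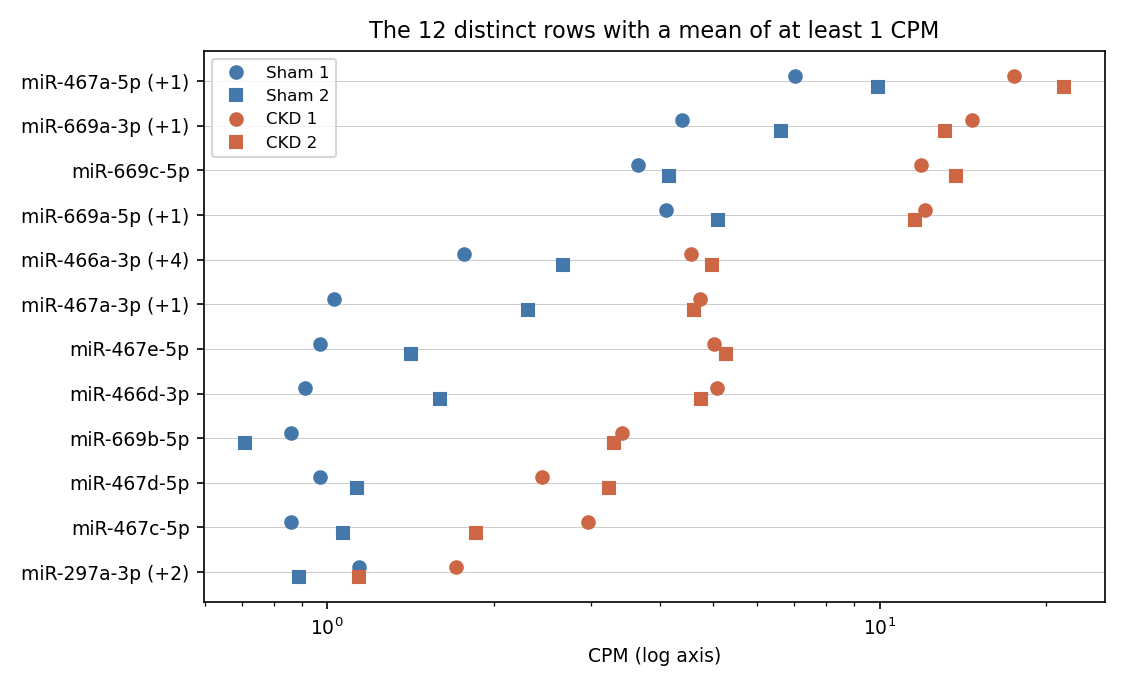
CPM (log axis) of the 12 distinct rows with a mean of at least 1 CPM, by library. Blue points are Sham and red points CKD, circles are libraries numbered 1 and squares libraries numbered 2, and (+n) gives the number of further names with identical values. In 11 rows the red points lie to the right of the blue ones, and in miR-297a-3p they meet at 1.14 CPM.

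On the deposited scale all 12 rows tested had a difference above 0, and 11 of them were called higher in CKD, as was most of the table. The test was limma on log2(CPM + 1) over the 479 entries with a mean of at least 1 CPM, with a two-sided Benjamini-Hochberg threshold of 0.05, and a log2 difference on this scale understates the change of low entries. By this test 83.9% of all entries tested were called, 82.9% higher and 1.04% lower in CKD, and 91.2% had both CKD libraries above both Sham libraries. The share of the members is near that background, so it is not a result about the members. Rows that pass a limit on the mean through a high CKD level had to differ, so the count is given as a description. Adjusted p ranged from 0.0015 for miR-669c-5p to 0.042 for miR-467c-5p among the 11 (limma).

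The highest differences were 1.49 for miR-467e-5p (SE 0.30, limma adjusted p = 0.0017) and 1.49 for miR-669c-5p (SE 0.29, limma adjusted p = 0.0015). miR-467a-5p rose by 1.12 (SE 0.32, limma adjusted p = 0.0073). miR-297a-3p was the row that did not pass, with a difference of 0.26 (SE 0.33, limma adjusted p = 0.47). The median of the 12 rows was 1.17, against 1.34 for all entries tested. Among the other entries between 1.22 and 14.0 mean CPM, the range that the members span, the median was 1.24, with quartiles at 0.91 and 1.58, and 81.1% were called.

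With a library left out fewer entries were called, among the members and in the whole table. Of the 11, 7 were called without Sham 1, 9 without Sham 2, 5 without CKD 1 and 6 without CKD 2 (limma). In the same fits 61.8%, 81.8%, 29.9% and 50.3% of all entries tested were called, against 83.9% with all 4 libraries. miR-467e-5p, miR-466d-3p and miR-669b-5p passed in each of these 4 fits. miR-467a-5p, miR-669a-3p, miR-669c-5p and miR-669a-5p passed without either Sham library and not without either CKD library, where adjusted p reached 0.25, 0.13, 0.064 and 0.11 (limma). miR-467d-5p passed without either CKD library and not without either Sham library, miR-467a-3p was lost without Sham 1 alone, and miR-466a-3p and miR-467c-5p passed in 1 of the 4 fits each. Without the limit of 1 CPM, when all entries were tested, miR-467a-5p, miR-467a-3p, miR-466a-3p, miR-467d-5p and miR-467c-5p were lost as well, with adjusted p between 0.053 and 0.11 (limma), and 27.2% of all entries were called. With a CKD library left out, the lone CKD library is assumed to vary like the others.

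The shift shared by most of the table accompanied a smaller share of miR-143-3p, a miRNA of contractile smooth muscle. It made up 79.8% and 72.5% of reads in Sham and 41.1% and 40.8% in CKD. Reads other than miR-143-3p thus made up 2.48 times as large a share of a library in CKD, and the summed CPM of the 4 families was 2.68 times as high. With a fixed total per library, a fall of miR-143-3p and a rise of everything else cannot be told apart.

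After trimmed-mean (TMM) scaling, which removes the shift shared by most entries, none of the 12 rows passed, while 7.72% of all entries tested did, 1.88% higher and 5.85% lower (limma). None of the 12 had an unadjusted p under 0.05, and edgeR (quasi-likelihood, run on whole reads), with 6.47% of entries called, also called 0 of the 12. Relative to the shift, 5 rows lay above 0 and 7 below, with a median of -0.13. The other entries of the same level had a median of 0.05, with quartiles at -0.23 and 0.41. The smallest adjusted p among the members was 0.25, for miR-467e-5p.

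The rows that lay above the shift were miR-467e-5p at 0.39 (SE 0.17), miR-466d-3p at 0.31 (SE 0.17), miR-669b-5p at 0.31 (SE 0.24), miR-669c-5p at 0.11 (SE 0.19) and miR-467a-3p at 0.00 (SE 0.22). Of the others, miR-467a-5p (-0.34, SE 0.18), miR-466a-3p (-0.35, SE 0.16), miR-669a-3p (-0.20, SE 0.13) and miR-669a-5p (-0.19, SE 0.14), lay below it, although each rose on the deposited scale. miR-467c-5p was at -0.17 and miR-467d-5p at -0.10. The sign for miR-669c-5p, miR-467a-3p and miR-467d-5p changed with a library left out, and edgeR put miR-467a-3p at -0.024. miR-297a-3p was lowest at -0.62 (SE 0.28, limma adjusted p = 0.26), and edgeR put it at -1.15 (adjusted p = 0.24). The adjusted p of these values all missed the threshold, which does not show that the rows did not differ.

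**Figure D3:**
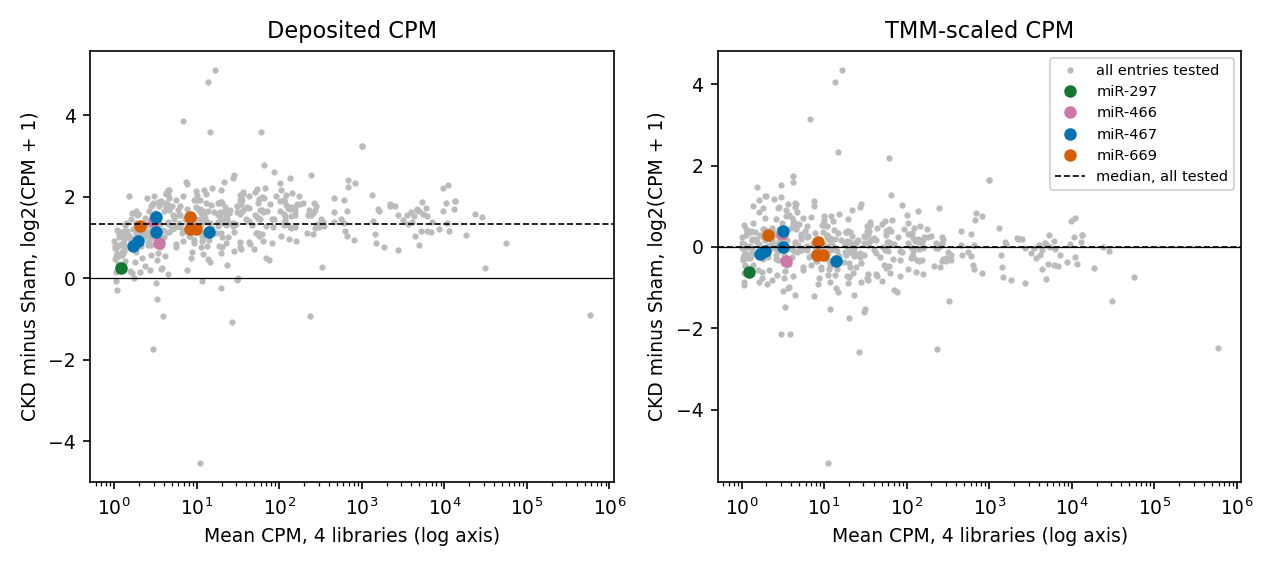
CKD minus Sham difference on the log2(CPM + 1) scale against the mean CPM of the 4 libraries (log axis), for deposited CPM (left) and TMM-scaled CPM (right). Grey points are the 479 entries tested, coloured points the 12 member rows by family, and the dashed line is the median of all entries tested, 1.34 on the left. The coloured points sit within the grey cloud in both panels, with the miR-297 row lowest among them.

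Summed over all distinct rows of a family, which needs no limit on low values, miR-669 was the largest and miR-297 the smallest in every library. The miR-669 sum was 15.1 and 19.9 CPM in the Sham pools against 49.6 and 48.9 CPM in the CKD pools, a ratio of 2.81 between the group means. The miR-467 sum was 10.8 and 15.9 CPM in the Sham pools against 33.1 and 36.9 CPM in the CKD pools, a ratio of 2.62. The miR-466 sum was 4.79 and 7.64 CPM in the Sham pools against 17.6 and 16.0 CPM in the CKD pools, a ratio of 2.71. These 3 ratios lie close together and close to that of all reads other than miR-143-3p.

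The miR-297 sum was 1.48 and 1.13 CPM in the Sham pools against 2.57 and 1.68 CPM in the CKD pools, a ratio of 1.63. It rested on 26, 19, 45 and 28 reads in the order Sham 1, Sham 2, CKD 1 and CKD 2. The exact Poisson 95% intervals of the second Sham and second CKD library, 0.678 to 1.76 CPM and 1.12 to 2.43 CPM, overlapped. Such intervals cover counting error only, and they understate it where amplified reads are not independent molecules. An exact two-sided permutation test of 2 against 2 libraries cannot go below p = 0.333, so no p is given for the sums or for differences between families.

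Counted per 1000000 reads other than miR-143-3p, a scale added after the data were seen, the 4 families together had 159.5 and 161.5 in the Sham pools against 174 and 174 in the CKD pools, a ratio of 1.08. On that scale miR-669 had 74.7 and 72.4 in the Sham pools against 84.2 and 82.5 in the CKD pools. These values did not overlap, but their counting error was not worked out on that scale. miR-467, with 53.7 and 58.0 in the Sham pools against 56.3 and 62.3 in the CKD pools, and miR-466, with 23.8 and 27.8 in the Sham pools against 29.9 and 27.1 in the CKD pools, overlapped between the groups. miR-297 had 7.35 and 4.10 in the Sham pools against 4.36 and 2.84 in the CKD pools, also overlapping, and was the family with a lower CKD mean. With TMM scaling all 4 sums were lower in CKD, at ratios of 0.515 for miR-297, 0.921 for miR-466, 0.890 for miR-467 and 0.945 for miR-669, so the direction of all 4 depends on the scaling. With that scaling both CKD libraries lay below both Sham libraries for miR-297, miR-466, miR-467 and the 4 families together, and the groups overlapped for miR-669.

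**Figure D4:**
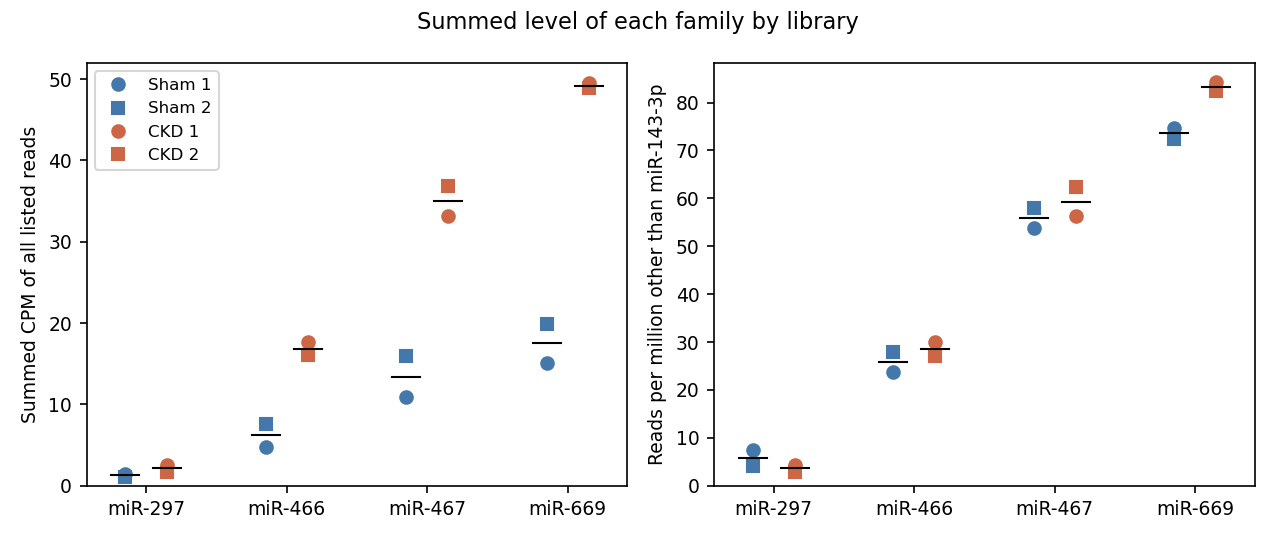
Summed level of each family by library, in CPM of all listed reads (left) and per 1000000 reads other than miR-143-3p (right). Points are libraries, blue for Sham and red for CKD, circles for libraries numbered 1 and squares for libraries numbered 2, and black lines are group means. On the left the CKD means of miR-466, miR-467 and miR-669 lie at 2.71, 2.62 and 2.81 times the Sham mean, and on the right the groups lie close together.

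The families kept the same order of shares in every library. miR-669 took 46.8% and 44.9% of the reads of the 4 families in Sham and 48.4% and 47.4% in CKD. miR-467 took 33.7% and 35.9% in the Sham pools against 32.4% and 35.8% in the CKD pools. miR-466 took 14.9% and 17.2% in the Sham pools against 17.2% and 15.5% in the CKD pools. miR-297 took 4.61% and 2.54% in the Sham pools against 2.51% and 1.63% in the CKD pools, so its second Sham and first CKD library were nearly equal. The shares of miR-467 and miR-466 overlapped between the groups, that of miR-669 was higher in both CKD libraries and that of miR-297 was lower. For miR-669 the first Sham library, at 46.8%, was close to the second CKD library, at 47.4%, and counting error was not worked out.

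The families differed in which arm their reads came from, a property that the choice of members did not use. Of reads on entries with a named arm, 5p held 90.5% and 85.1% in the Sham pools against 84.3% and 86.6% in the CKD pools for miR-467. For miR-669 the 5p share was 67.4% and 61.6% in the Sham pools against 67.0% and 68.6% in the CKD pools. For miR-466 it was 20.8% and 26.7% in the Sham pools against 26.7% and 19.8% in the CKD pools. The ranges of these 3 families over the 4 libraries did not overlap each other, while Sham and CKD overlapped within each family.

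For miR-297 the 5p share was 23.1% and 21.1% in the Sham pools against 33.3% and 32.1% in the CKD pools. The groups did not overlap, but with 26 reads in Sham 1 the Wilson 95% interval of its share ran from 11.0% to 42.1% and held both CKD values.

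Several names were one-sided, and the examples here were picked after their values were seen. miR-669c had 571 reads on 5p and 1 on 3p over the 4 libraries, miR-467e had 217 and 11, and miR-467c had 116 and 3. miR-466d was the reverse, with 1 read on 5p and 211 on 3p. These lone reads stand in rows shared with other names, miR-467f for miR-669c-3p, and miR-466n-5p and miR-669l-3p for miR-466d-5p. miR-669a was balanced, with 563 reads on 5p and 666 on 3p, and both rows are shared with other names. miR-669f, with 56 and 61 reads, was balanced too and shares its rows with no other name.

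The 39 rows with a mean under 1 CPM were read as counts. Of these, 23 had both CKD libraries above both Sham libraries, 2 had both below, and 14 overlapped. Among all entries under 1 CPM, 34.6% had both CKD libraries above both Sham libraries. That is a lower share than among the members, but the entries were not matched for level, and no test was made. Those entries also include the members, and identical rows were not merged among them. In 19 of the 51 distinct rows there were at most 10 reads in all 4 libraries together, and 30 rows had reads in every library. The Sham libraries had reads in 33 and 41 distinct rows and the CKD libraries in 44 and 44. Over the whole table, with identical rows not merged, 730 and 795 of 1152 entries had reads in Sham against 963 and 940 in CKD. More entries thus had reads in CKD throughout the table, so the count is not a result about the members.

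Among these low rows miR-669f-5p had 0.17 and 0.30 CPM in the Sham pools against 1.43 and 1.38 CPM in the CKD pools. miR-669f-3p had 0.29 and 0.59 CPM in the Sham pools against 1.25 and 1.44 CPM in the CKD pools. Both arms of this hairpin were thus higher in CKD on the deposited scale. miR-466h-5p, known as a pro-apoptotic miRNA, had no read in Sham 1, 0.30 CPM in Sham 2, 0.97 CPM in CKD 1 and 0.66 CPM in CKD 2. Its 3p arm had 0.46 and 0.41 CPM in the Sham pools against 1.25 and 0.60 CPM in the CKD pools. After TMM scaling miR-669f-5p stayed apart, with 0.36 and 0.43 CPM in the Sham pools against 0.79 and 0.83 CPM in the CKD pools. miR-669f-3p then overlapped, with 0.61 and 0.85 CPM in Sham against 0.69 and 0.87 CPM in CKD. Both miR-466h rows overlapped too, miR-466h-3p with 0.96 and 0.59 CPM in Sham against 0.69 and 0.36 CPM in CKD. These 4 rows were chosen after their values were seen.

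The 2 rows lower in CKD were miR-466k, with 0.17 and 0.12 CPM in Sham, and miR-669d-2-3p, with 0.11 and 0.06 CPM. Neither had a read in CKD, where 3 reads, the limit that a count of 0 allows, are worth 0.171 and 0.180 CPM. Both Sham levels are at or under that limit, so no fold is given and a difference was not detectable at this depth.

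The 6 names with hairpins only outside Sfmbt2 held 5 and 8 reads in Sham, and 22 and 9 in CKD, between 0.524% and 1.23% of the reads of the 4 families. miR-466i-5p held 22 of these reads, 15 of them in CKD 1, with 0.06 and 0.18 CPM in the Sham pools against 0.86 and 0.18 CPM in the CKD pools. The others, among them the 5 with the sequences given above, had at most 8 reads each, and the rows of miR-466i-3p, miR-466j and miR-467f are shared with names from the cluster.

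**Figure D5:**
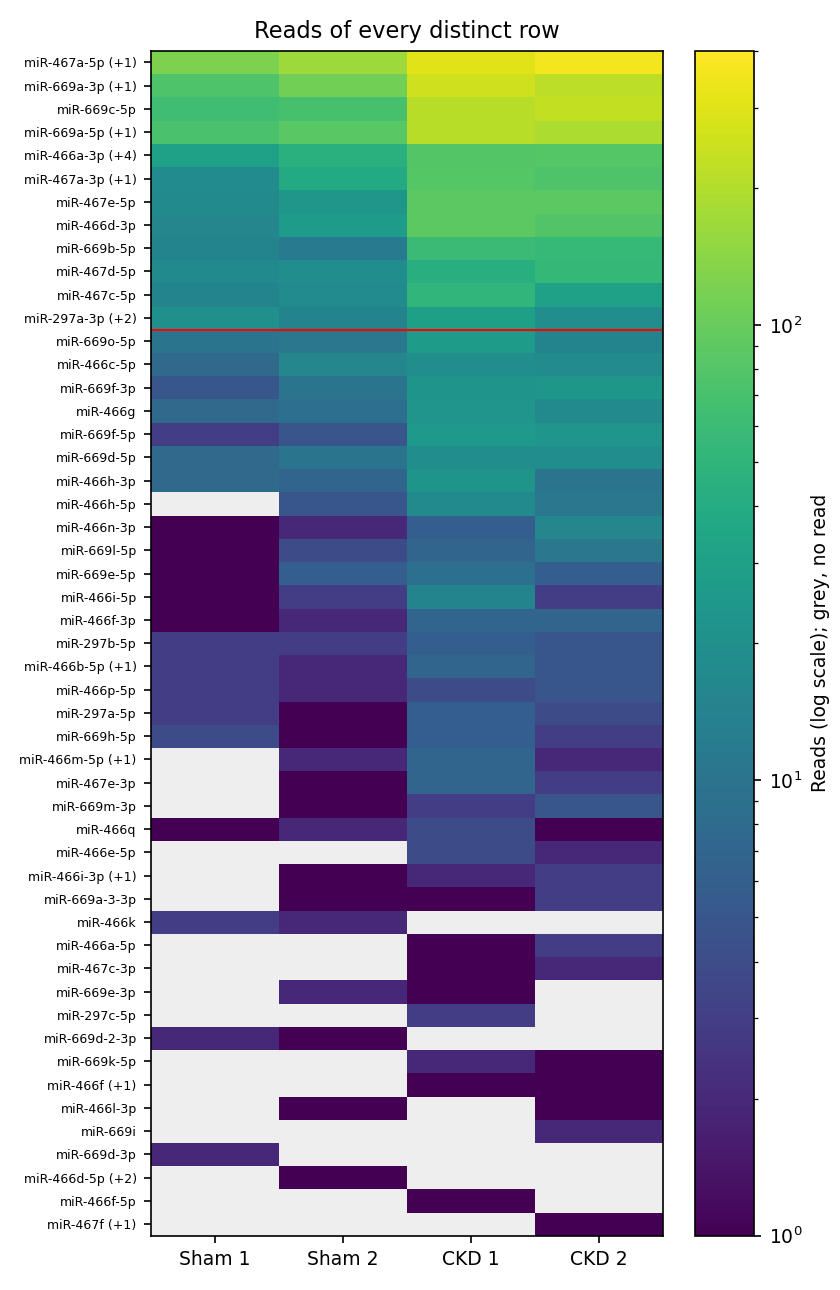
Reads of each of the 51 distinct rows in the 4 libraries, ordered by mean CPM, with a logarithmic colour scale and grey for no read. The red line separates the 12 rows with a mean of at least 1 CPM from the 39 below it, and (+n) gives the number of further names with identical values. Rows near the bottom have reads in 1 or 2 libraries.

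A whole aorta holds several cell types, and in such bulk RNA fewer cells of a type and less RNA per cell cannot be told apart. Of 22 marker miRNAs of smooth muscle, endothelium, blood, fat, striated muscle, liver, kidney and nerve, 18 were higher in both CKD libraries, 1 (miR-143-3p) was lower and 3 overlapped. Among all entries tested, 91.2% had both CKD libraries above both Sham libraries, so the count is not a result about the markers. With TMM scaling 2 were called, miR-143-3p and miR-145a-5p, both lower, against 5.85% of all entries tested called lower (limma). The summed CPM of the 20 markers other than those 2 was 4293 and 6019 in the Sham pools against 16225 and 18278 in the CKD pools, and miR-206-3p was the marker at 0 in a library, Sham 2. All reads other than miR-143-3p together made up 2.48 times as large a share in CKD. The part of other cell types in the values of the 4 families was not tested.

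The Dlk1 to Dio3 cluster, another imprinted group, was far more abundant, with summed CPM of 1006 and 1395 in the Sham pools against 3002 and 2617 in the CKD pools. Its 60 tested members had a median difference of 1.20 in deposited CPM, where 46 were called higher, beside 82.9% of all entries tested (limma). After TMM scaling the median was -0.11, and 7 were called lower and 0 higher, beside 5.85% and 1.88% of all entries tested (limma). Whether the families of Sfmbt2 differ from it was not tested.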

How the data were processed

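The 4 pooled aorta libraries hold RNA of 18 to 30 nucleotides, per the labels' protocols. The authors used Bowtie (no version given) and GRCm38, per the submitters' processing notes. For the miRNA annotation and the counting, no source used here gives details. Since each library sums to about 1000000, the deposited values were read as CPM made by the authors. In 3 of the 4 deposited files names stand above values in a single column (unit other), and they were paired by position. Within 0.005 CPM, 100% of the values above 0 equal a whole number of reads, which gave between 16658810 and 17532748 reads per library.

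limma 3.58.1 was run with a mean-variance trend on log2(CPM + 1) over the 479 entries with a mean of at least 1 CPM, and again after TMM factors (edgeR 4.0.16) of 0.479 and 0.696 for Sham and 1.81 and 1.66 for CKD. The plan foresaw a permutation p for sums and arm shares and a grouping by seeds; with 2 libraries a group and 5 matched sequences these are described only. DESeq2 1.42.0, edgeR, other scalings, filters and pseudocounts, the replicate number as a block and leaving out each library were alternatives. The fits were tested on simulated counts. Named were the 12 distinct rows with a mean of at least 1 CPM, the members next to that limit and any called. The members and lists were chosen with earlier results of these data known.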

Additional observations from a re-analysis of the deposited data

How the results depend on the processing

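None of the 12 tested rows was called with TMM scaling under any alternative, including median-of-ratios and upper-quartile scaling, edgeR and DESeq2, although DESeq2 gave 4 of them no adjusted p. On the deposited scale all 12 kept their direction, and the number called was 11, between 5 and 9 with a library left out, 8 of 51 without a filter, and 1 of 1 with a mean of at least 10 CPM, where fewer rows are tested. With pseudocounts of 0.1 and 10 it was 11. Of all entries tested on that scale, 82.5% and 86.2% were called with these pseudocounts. With a mean of at least 10 CPM, 90.9% of the 265 entries tested were called. Replicate numbers pair nothing in the labels. Same-numbered libraries had deviations correlated at 0.118 across entries, and with the replicate number as a block 8 members were called in deposited CPM (miR-466a-3p, miR-467d-5p and miR-467c-5p were lost) and 0 after TMM scaling. Over all entries, 402 of 479 were called on the deposited scale, 352 with the replicate block, 313 of 1152 without a filter, 241 with a mean of at least 10 CPM and between 143 and 392 with a library left out. With TMM scaling 37 were called, 18 without a filter, 10 with the replicate block, 74 by DESeq2 and between 5 and 13 with a library left out.

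The log2 ratios of the family sums reversed with TMM scaling: from 0.70 to -0.96 for miR-297, 1.44 to -0.12 for miR-466, 1.39 to -0.17 for miR-467, 1.49 to -0.081 for miR-669 and 1.42 to -0.14 for all 4. Per 1000000 reads other than miR-143-3p, a scale chosen after seeing the data, they were -0.67, 0.14, 0.087, 0.18 and 0.12. These scalings differ by construction in how they treat the shared shift. On the deposited scale, without the most abundant row of each set, the log2 ratio was higher for every family. It was 1.27 for miR-297, 1.59 for miR-466, 1.66 for miR-467, 1.56 for miR-669 and 1.48 for all 4. With a library left out the ratios ranged from 0.37 to 0.98 for miR-297, 1.14 to 1.81 for miR-466, 1.14 to 1.69 for miR-467, 1.31 to 1.71 for miR-669 and 1.21 to 1.67 for all 4. Rows with at most 10 reads are limited by depth.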

Other observations

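Other miRNA groups known from embryo or germ line were also scarce. The X-linked germline cluster was listed with 9 names in 5 distinct rows, with summed CPM of 1.66 and 3.20 for Sham against 9.75 and 9.24 for CKD. The miR-290 and miR-302 clusters of embryonic stem cells were listed with 2 names, with no read in Sham and 0.0570 and 0.0600 CPM in CKD, which is 1 read per library. The imprinted miR-335 with miR-296 and miR-298 had 6.28 and 14.5 CPM in the Sham pools against 30.2 and 34.0 CPM in the CKD pools. Of these 3 groups no row was called with TMM scaling (limma), and 3 rows in all had a mean of at least 1 CPM.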
